A study of Homo sapiens with 12 samples.

Results

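The 10 genes described here are the Toll-like receptor (TLR) genes TLR1, TLR2, TLR4, TLR6, TLR7, TLR8, TLR9 and TLR10, with UNC93B1, which escorts several of these receptors to endosomes, and CD180, a TLR homologue of the B cell surface. They were taken by gene name from a deposited table of 26318 genes, and each of the 10 was in it and passed the filter on low counts. The study measured polyadenylated RNA in 12 libraries of TMD8, an established human lymphoma line that the labels call an ABC (activated B cell) lymphoma. In 6 of them the cells had received a short hairpin RNA (shRNA) against IRF4, a transcription factor of the B cell lineage, and in the other 6, the controls, a scramble shRNA. Cells were pelleted at 24 h, and no other genotype, agent or treatment is given for either group. Library names divide each group into 3 libraries of a series 1 and 3 of a series 2, and the sources used here do not give what the series number stands for, nor the hairpin sequences, the delivery or whether libraries came from separate cultures.

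TLRs are membrane receptors whose ectodomains of leucine-rich repeats bind microbial molecules and whose cytoplasmic TIR domains recruit adaptors such as MYD88. TLR1, TLR2, TLR4, TLR6 and TLR10 act mainly at the cell surface, whereas TLR7, TLR8 and TLR9 bind nucleic acids in endolysosomes, to which UNC93B1 delivers them. B cells are known to use TLR7, TLR9, TLR10 and CD180, and activating changes of MYD88 are frequent in lymphomas of the activated B cell type.

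Depth ran from 31.3 to 38.2 M counts (1 M is 1e+06) per library, and 3 counts, the number that a count of 0 allows, corresponded to 0.0786 to 0.0959 counts per 1e+06 counts (CPM). IRF4 itself stood at 1481 ± 55.9 CPM (SD, n = 6) in the controls and 611 ± 101 CPM with IRF4 shRNA, or 41.3% of control (exact two-sided permutation test, p = 0.00216). It was at 34.7% in series 1 and 47.9% in series 2, where 3 against 3 libraries allow an exact permutation p of no less than 0.1. The B cell markers were high throughout, with a summed level over 6 genes of 4530 to 5113 CPM in the controls and 6479 to 6814 CPM with IRF4 shRNA. Monocyte markers bear on TLR2, TLR4 and TLR8, which myeloid cells express strongly. Of these, CD14 had 44 counts over the controls and 44 over the IRF4 shRNA libraries, CSF1R 30 and 29, and LYZ 4 and 44. ITGAM of the same list rose from 57 to 250 counts (log2 fold change 2.01, edgeR adjusted p = 1.28e-06), and its part in the values of these TLR genes was not tested. The summed level of the 5 listed monocyte genes in the table, mostly CD68, was 42.3 to 54.3 CPM in the controls and 29.6 to 42.3 CPM with IRF4 shRNA. The T cell marker CD3E had 0 and 1 counts. In bulk RNA, fewer cells with a transcript and less RNA per cell cannot be told apart.

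With IRF4 shRNA, the 10 transcripts did not all move in 1 direction. TLR1, TLR7 and CD180 rose 1.91- to 2.20-fold, TLR4, TLR6, TLR8 and TLR9 rose 1.14- to 1.42-fold, TLR2 fell to 0.512 of its control level, and TLR10 and UNC93B1 did not pass the test. By edgeR's quasi-likelihood test with Benjamini-Hochberg adjustment over 16437 genes, 8 of the 10 passed an adjusted p of 0.05, where 48.2% of all genes passed. Of the 10, 7 were higher, against 24.2% of all genes, and 1 was lower, against 23.9%. The median log2 fold change of the 10 was 0.47, and that of all genes was -0.01. In 4 of the 10 genes, TLR1, TLR2, TLR7 and CD180, no control library overlapped any IRF4 shRNA library, as was so for 30.8% of all genes. The 8 changes had the same direction under each scaling tried. Under DESeq2's size factors 7 were higher and 1 lower (median 0.47), and under library size alone and with a trend on GC content removed 8 were higher and 1 lower (medians 0.55 and 0.41), UNC93B1 being added. Of all 16437 genes, 3977 were higher and 3943 lower under DESeq2's size factors (median -0.01). Under library size alone 5257 were higher and 2968 lower (median 0.07), and with the GC trend removed 3878 and 5318 (median -0.05).

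**Figure D1:**
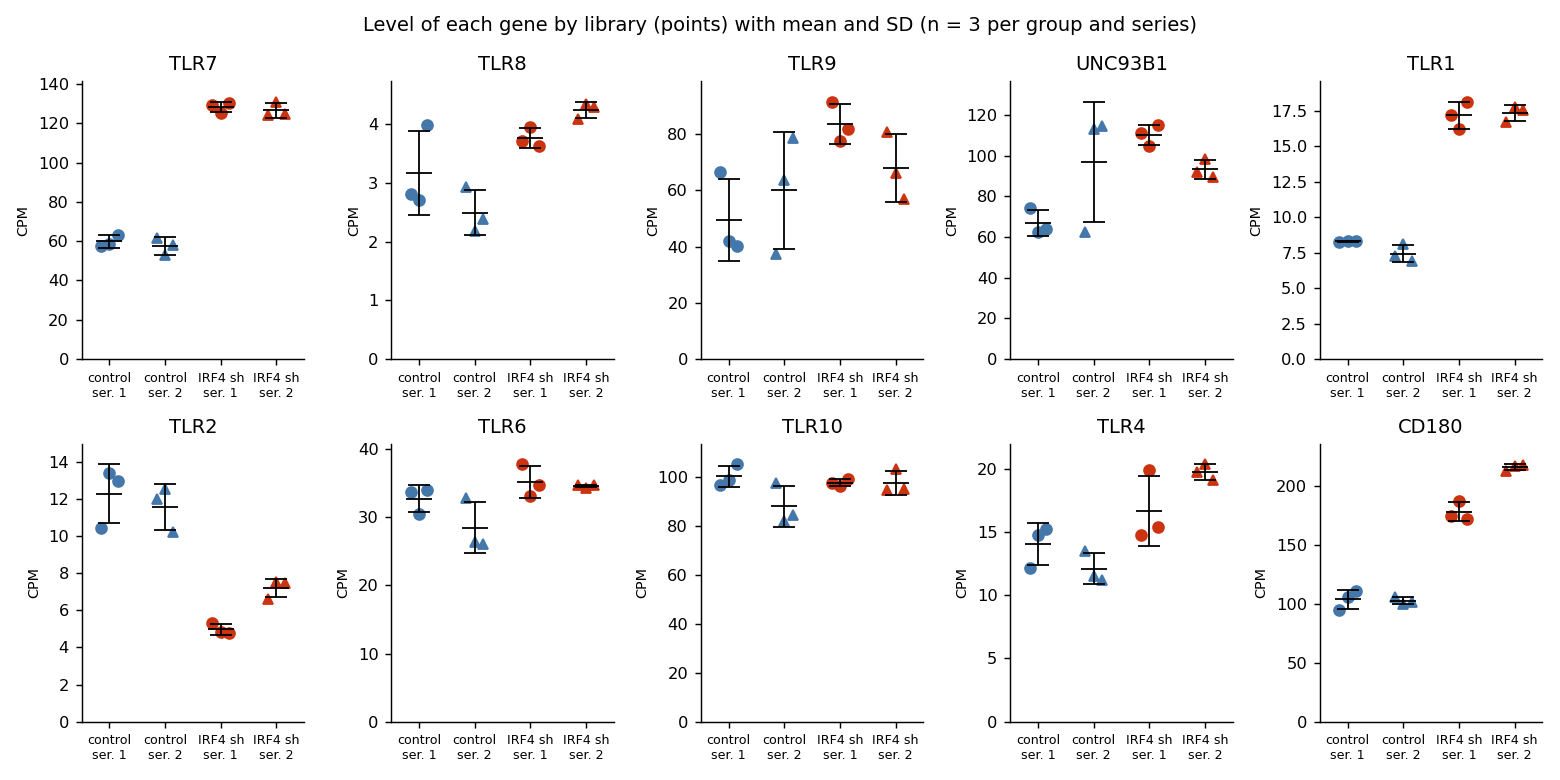
Level of each of the 10 genes in CPM (vertical axes, linear, from 0) in every library, with a point per library and, for each group and library series, a dash at the mean and whiskers of 1 SD (n = 3). TLR1, TLR7 and CD180 lie higher and TLR2 lower in all 6 IRF4 shRNA libraries, while control replicates 5 and 6 stand above the other controls for UNC93B1.

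**Figure D2:**
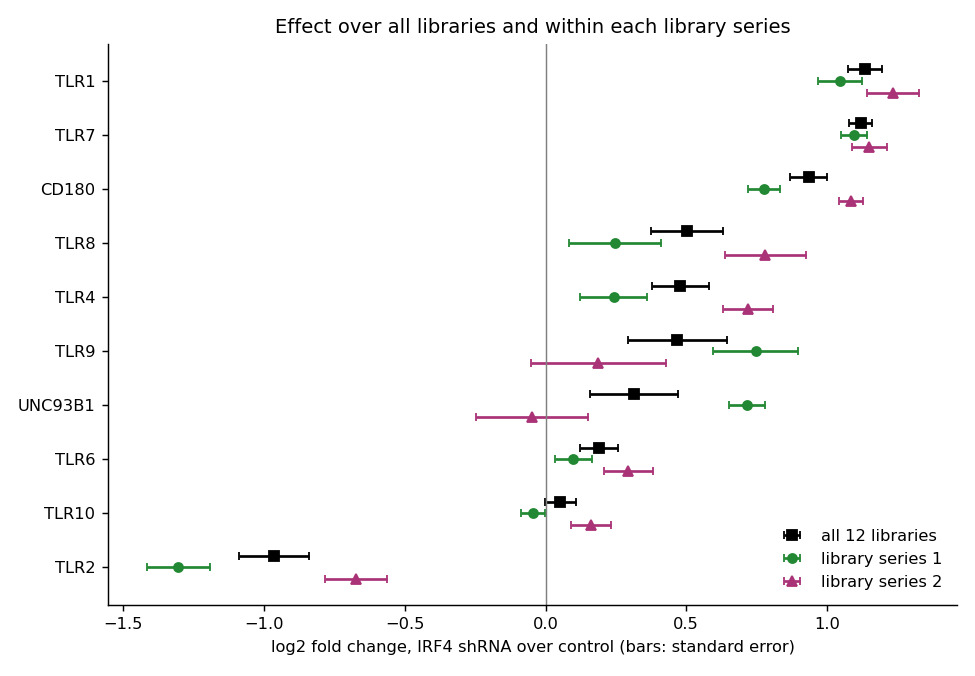
Log2 fold change with IRF4 shRNA (horizontal axis) of each gene over all 12 libraries, in series 1 and in series 2, with whiskers of 1 standard error (SE). TLR1, TLR7 and CD180 lie between 0.77 and 1.23 in every fit, TLR2 lies below 0, and TLR9 and UNC93B1 lie further right in series 1 than in series 2.

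Among the endosomal receptors, TLR7, which binds single-stranded RNA, rose 2.17-fold with the smallest SE of the 10 genes. It is encoded at chrX:12867072-12890361 on the plus strand (hg38). Its level was 52.8, 58.3 and 63.4 CPM (lowest, median and highest) in the controls and 124, 127 and 131 CPM with IRF4 shRNA. Every IRF4 shRNA library was far above every control, and the spread within each group was small against the gap. Over all libraries the log2 fold change was 1.12 (SE 0.04; edgeR adjusted p = 1.46e-11), with 1.09 in series 1 and 1.15 in series 2. The difference between the series was 0.04 and did not pass the test (edgeR adjusted p = 0.793).

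TLR8, the sister receptor for RNA fragments, lies 16.3 kb further along the X chromosome at chrX:12906620-12923169. It was the scarcest of the 10, with 559 counts over the 6 controls and 860 over the IRF4 shRNA libraries. Levels were 2.18, 2.76 and 3.99 CPM in the controls and 3.62, 4.02 and 4.35 CPM with IRF4 shRNA, so the groups overlapped through the highest control. With IRF4 shRNA the log2 fold change was 0.50 (SE 0.13; edgeR adjusted p = 0.00419), with 0.25 in series 1 (edgeR adjusted p = 0.234) and 0.78 in series 2 (edgeR adjusted p = 0.00303). Leaving out control replicate 3, the highest control, took series 1 to 0.44 (edgeR adjusted p = 0.037). TLR3, the endosomal receptor for double-stranded RNA and not among the 10, had 0 counts in the controls and 3 over the 6 IRF4 shRNA libraries, and was not tested. TLR5 was not analysed here.

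TLR9, the receptor for unmethylated CpG DNA, varied widely between libraries of both groups. Its gene lies at chr3:52221080-52226163 on the minus strand. Controls 1 to 6 gave 66.4, 41.9, 40.4, 37.4, 63.8 and 78.6 CPM, and IRF4 shRNA replicates 1 to 6 gave 91.6, 77.6, 82.0, 80.8, 66.2 and 56.8 CPM. The groups overlapped: control replicate 6 was above 3 of the IRF4 shRNA libraries, and the 3 low controls came from both series. Against control, the log2 fold change was 0.47 (SE 0.18; edgeR adjusted p = 0.0403), with 0.75 in series 1 (edgeR adjusted p = 0.00146) and 0.19 in series 2 (edgeR adjusted p = 0.566). The direction over all libraries held in each of 26 alternatives, but 13 of them lost the call, and series 2 gave -0.07 without control replicate 4. Leaving out control replicate 2, 3 or 4 gave 0.40, 0.39 and 0.38 (edgeR adjusted p = 0.0863, 0.0829 and 0.0847), and leaving out IRF4 shRNA replicate 1, 2, 3 or 4 gave 0.42, 0.47, 0.46 and 0.46 (edgeR adjusted p = 0.0864, 0.064, 0.0714 and 0.0699).

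Reads of TLR9 are also hard to assign. Of its 3771 exonic windows of 100 bases, 83.4% occur as well in AC097637.1, an annotated protein-coding gene at chr3:52221081-52231190 on the same strand that overlaps TLR9. The table held fractional values for TLR9 in all 12 libraries. AC097637.1 stood at 103 ± 7.25 CPM in the controls and 111 ± 10.8 CPM under IRF4 shRNA (SD, n = 6; log2 fold change 0.11, edgeR adjusted p = 0.178). The sources used here do not say how the authors' counting divided reads between these genes, so the level of TLR9 is uncertain.

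UNC93B1 encodes the membrane protein that carries nucleic acid-sensing TLRs from the endoplasmic reticulum to endosomes. Its gene lies at chr11:67991100-68004982 on the minus strand. Controls 1 to 6 gave 74.1, 62.4, 63.9, 62.6, 113 and 115 CPM, and the IRF4 shRNA libraries gave 111, 105, 115, 92.0, 98.3 and 89.3 CPM. Control replicates 5 and 6 were at the top of all 12 libraries together with IRF4 shRNA replicates 1 and 3, and the other 4 controls were below every IRF4 shRNA library. Over all libraries the log2 fold change was 0.31 (SE 0.16; edgeR adjusted p = 0.115). In series 1 it was 0.72 (SE 0.06; edgeR adjusted p = 2.54e-06), from 66.8 ± 6.37 to 110 ± 4.98 CPM (SD, n = 3), and in series 2 it was -0.05 (edgeR adjusted p = 0.87). Without control replicate 5 the value over all libraries was 0.43 and without replicate 6 also 0.43 (edgeR adjusted p = 0.0258 and 0.0187), and without both it was 0.63 (edgeR adjusted p = 1.03e-05). In series 2, leaving out control replicate 4 gave -0.29 (edgeR adjusted p = 0.000294), and leaving out replicate 5 or 6 gave 0.07 and 0.08.

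TLR9 and UNC93B1 differ from the other members in base composition. Their transcripts are 61.7% and 64.2% G and C, at percentiles 91.2 and 96.4 of 15832 tested genes, while the other 8 members lie between 38.4% and 43.5%, at or below percentile 27.6. Libraries of the same group also differed in how counts related to GC content across genes. Spearman's rho was taken between GC content and the deviation of each gene's log2 CPM from its group mean. It was -0.04, -0.47, -0.50, -0.36, 0.42 and 0.60 in controls 1 to 6, and 0.32, 0.24, 0.27, -0.20, -0.33 and -0.29 in IRF4 shRNA replicates 1 to 6. Such a rho compares a library with others of its own group only. In both groups, the libraries with rho above 0 included the highest levels of both genes. With a smooth GC trend removed per library, UNC93B1 gave a log2 fold change of 0.19 over all libraries (edgeR adjusted p = 0.00888), 0.17 in series 1 and 0.17 in series 2, and TLR9 gave 0.34 over all libraries. No further test of base composition was made.

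**Figure D3:**
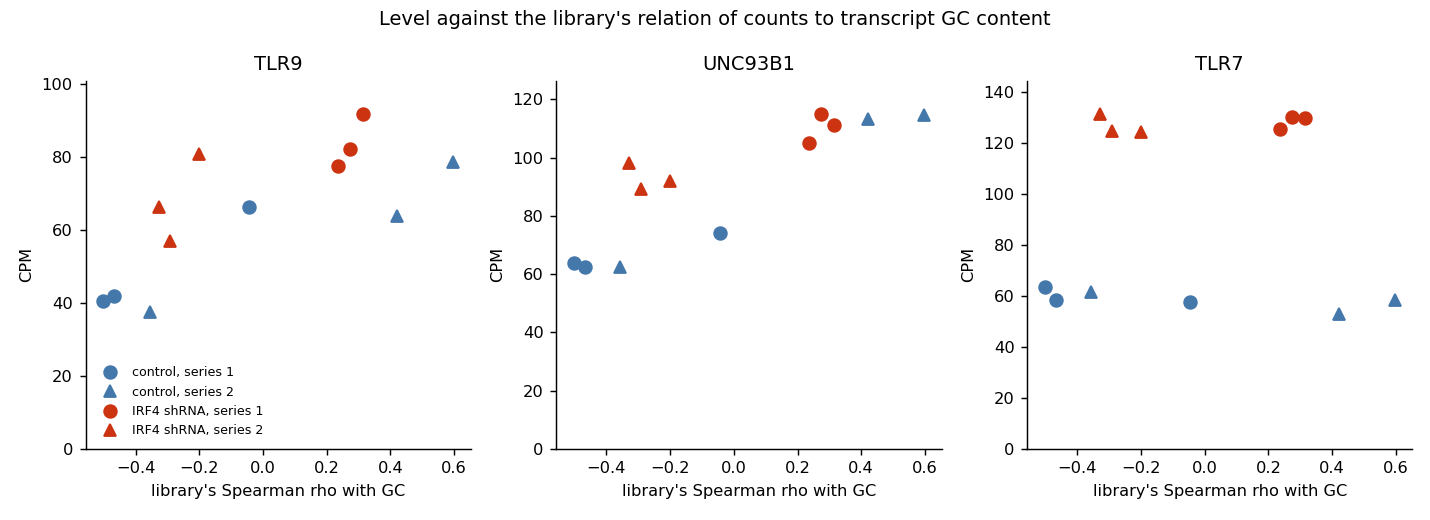
Level in CPM (vertical axes, linear, from 0) of TLR9, UNC93B1 and TLR7 in each of the 12 libraries against that library's Spearman rho (horizontal axis). The rho is between transcript GC content and each gene's deviation of log2 CPM from its group mean, over 15832 genes. Colours stand for the groups and marker shapes for the library series. UNC93B1 lies at 113 and 115 CPM in control replicates 5 and 6, whose rho is above 0, and at 62.4 to 74.1 CPM in the other controls. With IRF4 shRNA it lies at 105 to 115 CPM where rho is above 0 and at 89.3 to 98.3 CPM elsewhere. TLR7 lies at 52.8 to 63.4 CPM in all controls.

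Of the surface receptors, TLR2, which recognises bacterial lipoproteins as the shared partner of TLR1 and TLR6, was the only 1 of the 10 that fell in the fit over all libraries. It is encoded at chr4:153684070-153706260 on the plus strand. Levels were 10.2, 12.2 and 13.4 CPM (lowest, median, highest) in the controls and 4.80, 5.98 and 7.51 CPM with IRF4 shRNA. All IRF4 shRNA libraries lay below all controls, the 3 of series 1 below the 3 of series 2. The log2 fold change was -0.97 (SE 0.12; edgeR adjusted p = 1.29e-05), a 1.95-fold lower level. In series 1 TLR2 went from 12.3 ± 1.59 to 4.98 ± 0.299 CPM (SD, n = 3), a log2 fold change of -1.30, and in series 2 from 11.6 ± 1.22 to 7.19 ± 0.493 CPM, a log2 fold change of -0.67. The fall was larger in series 1 (difference 0.61, SE 0.16; edgeR adjusted p = 0.0261). IRF4 was also lower in series 1, and its part in this difference was not tested. The call of the difference was lost without control replicate 2, 3 or 6 or IRF4 shRNA replicate 2, 3, 5 or 6 (0.53 to 0.59).

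TLR1, which pairs with TLR2 for triacylated lipopeptides, moved the other way. Its gene spans chr4:38790677-38856817 on the minus strand. Levels were 6.91, 8.18 and 8.34 CPM in the controls and 16.2, 17.4 and 18.1 CPM with IRF4 shRNA. The groups were far apart, and the spread within each was under 1 CPM (SD 0.613 and 0.711). Over all libraries the log2 fold change was 1.14 (SE 0.06; edgeR adjusted p = 8.07e-10), a 2.20-fold rise, with 1.05 in series 1 and 1.23 in series 2, and the difference of 0.17 between them did not pass the test (edgeR adjusted p = 0.329).

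TLR6, which pairs with TLR2 for diacylated lipopeptides, changed little. It lies at chr4:38823715-38856817, within the span of TLR1 and sharing its upstream end. Levels were 26.1, 31.6 and 34.0 CPM in the controls and 33.1, 34.7 and 37.7 CPM with IRF4 shRNA, with the upper controls inside the IRF4 shRNA range. With IRF4 shRNA the log2 fold change was 0.19 (SE 0.07; edgeR adjusted p = 0.0335), with 0.10 in series 1 (edgeR adjusted p = 0.228) and 0.29 in series 2 (edgeR adjusted p = 0.0278). Without control replicate 2, 5 or 6 the call over all libraries was lost (0.19, 0.15 and 0.15; edgeR adjusted p = 0.055, 0.0741 and 0.0636). In series 2 it was lost without control replicate 5 or 6 (0.23 and 0.22) and without any 1 of the 3 IRF4 shRNA libraries (0.29 to 0.30). TLR1 and TLR6 share 119 windows of 100 bases, which are 2.48% of those of TLR1 and 1.96% of those of TLR6.

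TLR10, a receptor of B cells related to TLR1 and TLR6, was among the members at the highest level and did not pass the test. Its gene lies at chr4:38772238-38782990 on the minus strand. Levels were 82.0, 97.3 and 105 CPM in the controls and 94.6, 96.9 and 103 CPM with IRF4 shRNA, so that the IRF4 shRNA range lay inside that of the controls. Against control, the log2 fold change was 0.05 (SE 0.06; edgeR adjusted p = 0.471), with -0.05 in series 1 and 0.16 in series 2 (edgeR adjusted p = 0.105). Its sign depended on the setting: it was -0.03 over all libraries without control replicates 5 and 6, and 0.03 in series 1 under library size alone. Without control replicate 4, series 2 gave 0.23 (edgeR adjusted p = 0.0022), and under library size alone also 0.23 (edgeR adjusted p = 0.0422).

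TLR4, the receptor for lipopolysaccharide, was expressed at a low level. The gene occupies chr9:117704175-117724735 on the plus strand. Levels were 11.2, 12.8 and 15.2 CPM in the controls and 14.8, 19.4 and 20.3 CPM with IRF4 shRNA, overlapping between the highest control and the lowest IRF4 shRNA library. The log2 fold change was 0.48 (SE 0.10; edgeR adjusted p = 0.00112). In series 2 TLR4 rose from 12.1 ± 1.24 to 19.7 ± 0.612 CPM (SD, n = 3; log2 fold change 0.72, edgeR adjusted p = 0.00032). In series 1 the log2 fold change was 0.24 (edgeR adjusted p = 0.114), and the difference between the series did not pass the test (0.46, edgeR adjusted p = 0.0768). Of its exonic windows of 100 bases, 3.44% also occur in AL160272.2, an overlapping annotated gene, and reads there could be split by the counting.

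CD180 resembles TLR4 in its ectodomain but lacks a TIR domain, and on B cells it modulates the response to lipopolysaccharide together with its secreted partner, the product of LY86. The gene occupies chr5:67179613-67196799 on the minus strand. Levels were 94.7, 104 and 111 CPM in the controls and 172, 200 and 218 CPM with IRF4 shRNA. The groups were far apart, and the IRF4 shRNA libraries of series 2 were the highest. Over all libraries the log2 fold change was 0.93 (SE 0.07; edgeR adjusted p = 1.71e-08). CD180 went from 104 ± 8.27 to 178 ± 8.23 CPM in series 1 (log2 fold change 0.77) and from 102 ± 2.95 to 216 ± 2.49 CPM in series 2 (log2 fold change 1.09; SD, n = 3 each). The rise was larger in series 2 (difference 0.29, SE 0.07; edgeR adjusted p = 0.0237), a call that was lost without control replicate 2, 3, 5 or 6 or IRF4 shRNA replicate 1, 3, 5 or 6 (0.24 to 0.29) and with the GC trend removed (0.21).

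Of the 5 listed co-receptors, 3 were tested, of which 1 rose and 1 fell, against 24.2% and 23.9% of all genes. LY86 went from 10.04 ± 0.645 to 12.2 ± 1.56 CPM (log2 fold change 0.28, edgeR adjusted p = 0.0119), and the groups overlapped. LY86 gave 0.43 in series 1 (edgeR adjusted p = 0.0011) and 0.12 in series 2 (edgeR adjusted p = 0.361). The difference between the series did not pass the test (-0.33, edgeR adjusted p = 0.0847). LY96, whose product holds lipopolysaccharide for TLR4, stood at 3.89 and 4.0 CPM (log2 fold change 0.04; edgeR adjusted p = 0.743). CD14, the lipopolysaccharide co-receptor, was at 0.216 and 0.205 CPM and below the filter. CD36, a scavenger receptor that assists TLR2 and TLR6, fell from 99.8 ± 8.63 to 44.8 ± 11 CPM (SD, n = 6; log2 fold change -1.15, edgeR adjusted p = 3.93e-06). LBP was not analysed here.

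The sequences just upstream of CD180, TLR8 and TLR6 are shown because these genes rose by different amounts, and because the TLR6 window lies directly before the upstream end that TLR6 shares with TLR1. Each line gives 250 bases before the gene's start from RefSeq (GRCh38.p14), 5′ to 3′ on the gene's strand, with motif matches in capitals. They come from chr5:67196800-67197049 (minus strand) for CD180, chrX:12906370-12906619 (plus strand) for TLR8 and chr4:38856818-38857067 (minus strand) for TLR6, and 0 of their bases lie in an exon of GENCODE release 29.
CD180: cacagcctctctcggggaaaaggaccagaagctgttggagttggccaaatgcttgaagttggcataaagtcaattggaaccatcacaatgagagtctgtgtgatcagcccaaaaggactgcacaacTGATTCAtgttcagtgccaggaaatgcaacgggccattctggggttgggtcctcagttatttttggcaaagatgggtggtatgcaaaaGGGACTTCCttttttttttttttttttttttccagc
TLR8: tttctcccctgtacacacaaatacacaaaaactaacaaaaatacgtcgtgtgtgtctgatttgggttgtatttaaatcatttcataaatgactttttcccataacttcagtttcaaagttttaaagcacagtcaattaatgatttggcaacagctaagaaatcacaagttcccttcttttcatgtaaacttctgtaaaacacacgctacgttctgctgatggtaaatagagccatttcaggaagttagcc
TLR6: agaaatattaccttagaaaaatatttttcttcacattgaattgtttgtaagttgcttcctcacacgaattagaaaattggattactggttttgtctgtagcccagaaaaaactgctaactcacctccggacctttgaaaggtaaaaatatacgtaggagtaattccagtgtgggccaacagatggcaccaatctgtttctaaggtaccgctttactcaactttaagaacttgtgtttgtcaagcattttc
In all, 6 of the 10 genes matched an entry. The windows of TLR2, TLR4 and TLR9, with 210, 246 and 250 of their 250 bases inside GENCODE exons, were searched but are not printed. Motifs were searched on both strands in windows of this length in 35116 promoters. GAAA and GAAA spaced by 2 bases of any kind, the core of the interferon-stimulated response element, was in 0 of the 6 and in 3.02% of all promoters. GGAA and GAAA with the same spacing, the composite element that ETS factors and IRF4 or IRF8 share, was in TLR4 alone, on the opposite strand at -105 to -96, and in 2.41% of all. That match overlaps a match to GAGGAAGT, a PU.1 motif, at -101 to -94. A further match to GAGGAAGT lies in TLR4 at -173 to -166 and another in TLR9 at -9 to -2, and 2.17% of all promoters held it. TGANTCA, the AP-1 site, was in CD180 at -124 to -118 and in TLR9 at -87 to -81, and in 6.57% of all. GGGANTTCC, a kappaB site, was in CD180 at -36 to -28 and in 1.59% of all, and ATTTGCAT, the octamer, was in TLR9 at -101 to -94 and in 1.63% of all. The windows of TLR2, TLR6 and TLR8 held 0 of these motifs. No binding was measured in the data, and these matches are a description of letters only.

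Compared between genes, levels were divided by the union exon length of GENCODE release 29 (CPM per kb). The order and shares below rest on these lengths, and 5 of the 10 members have the same span there as in the deposited data. TLR4, with 13272 bp, stood at 13.1 CPM in the controls before this division, above TLR1 at 7.87 and TLR2 at 11.9 CPM. In the controls the order was UNC93B1 at 23.1, TLR10 at 22.3, CD180 at 18.2, TLR9 at 14.1 and TLR7 at 11.3 CPM per kb, each overlapping the next in its range over libraries. Below them came TLR6 at 5.07, TLR2 at 2.28, TLR1 at 1.73 and TLR4 at 0.985 CPM per kb, each without overlap with the next, and TLR8 at 0.651, which overlapped TLR4. With IRF4 shRNA the top of the order was CD180 at 34.8, UNC93B1 at 28.7, TLR7 at 24.5, TLR10 at 23.2 and TLR9 at 19.6 CPM per kb. Here too, neighbours among these genes overlapped in their ranges over libraries. At its lower end TLR1, at 3.81, now stood above TLR2, at 1.17 CPM per kb. TLR4, at 1.37, stayed below TLR1. The range of TLR2 overlapped those of TLR4 and of TLR8, at 0.920 CPM per kb.

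The makeup of the TLR transcript pool differed between the groups. The summed level of the 8 TLR genes went from 58.5 ± 2.70 to 80.3 ± 3.35 CPM per kb (SD, n = 6). TLR7 made up 19.3% ± 1.39 of it in the controls and 30.5% ± 1.0 with IRF4 shRNA, and TLR10 38.3% ± 3.91 and 28.9% ± 1.27. The share of TLR9 was 24.1% ± 6.96 and 24.3% ± 3.16, with a wide spread in the controls. TLR1 went from 2.97% to 4.75% and TLR2 from 3.92% to 1.46%. The ratio of TLR1 to TLR2 was 0.764 in controls (0.699 to 0.907 over libraries) and 3.38 with IRF4 shRNA (2.71 to 4.35), and that of TLR6 to TLR2 was 2.24 and 5.13. The ratio of TLR7 to TLR9 overlapped between the groups, at 0.550 to 1.22 in the controls and 1.05 to 1.63 with IRF4 shRNA.

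**Figure D4:**
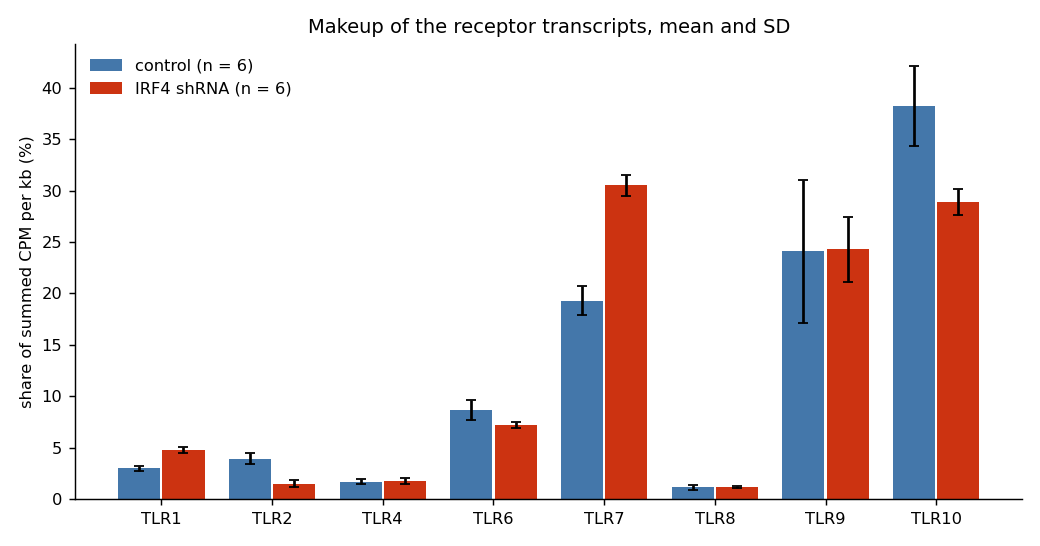
Share (percent, vertical axis from 0) of each of the 8 TLR genes in their summed level in CPM per kb, as the mean (bars) and SD (whiskers) of 6 libraries per group. TLR7 occupies 19.3% of the pool in the controls and 30.5% with IRF4 shRNA, TLR10 38.3% and 28.9%, and TLR2 3.92% and 1.46%.

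Genes that lie side by side differed in their changes. TLR10, TLR1 and TLR6 lie side by side on chromosome 4, TLR10 7.69 kb from TLR1, and their log2 fold changes were 0.05, 1.14 and 0.19. The nearest expressed genes outside this cluster, KLF3 and FAM114A1, did not pass the test (0.07 and 0.14; edgeR adjusted p = 0.598 and 0.393). On the X chromosome TLR7 and TLR8 rose while PRPS2, 42.9 kb from TLR7, fell by 0.28 on the log2 scale (edgeR adjusted p = 0.0021) and TMSB4X, 51.9 kb from TLR8, rose by 0.19 (edgeR adjusted p = 0.00135). Of the neighbours of TLR2, TMEM131L rose by 0.23 (edgeR adjusted p = 3.46e-05) and PLRG1 fell by 0.23 (edgeR adjusted p = 0.000166), 47.4 and 828.7 kb away. Of those of CD180, MAST4 rose by 0.59 (edgeR adjusted p = 0.0022) and PIK3R1 fell by 0.39 (edgeR adjusted p = 0.000194), 10 and 1019 kb away. Around TLR4, TRIM32 rose by 0.38 and TPT1P9 fell by 0.25 (edgeR adjusted p = 3.8e-05 and 0.00246), 1003 and 358 kb away. Around UNC93B1, FAM86C2P fell by 0.58, 186 kb away (edgeR adjusted p = 0.00184), and ALDH3B1, 3.6 kb away, gave 0.21 (edgeR adjusted p = 0.214). AC097637.2, 2.07 kb from TLR9, fell by 0.19 (edgeR adjusted p = 0.0113).

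Within the series, 6 of the 10 genes passed the test in series 1, where 50.5% of all genes passed, and 7 in series 2, where 38.1% passed. In series 1, 5 were higher and 1 lower, against 25.8% and 24.6% of all genes, and in series 2, 6 were higher and 1 lower, against 20.2% and 17.9%. TLR1, TLR7 and CD180 rose and TLR2 fell in both. TLR9 and UNC93B1 passed only in the series 1 fit and TLR4, TLR6 and TLR8 only in the series 2 fit, but of these only UNC93B1 differed between the series in the test of the difference (difference -0.78, SE 0.23; edgeR adjusted p = 0.0437). With TLR2 and CD180, 3 of the 10 differed between the series, where 13% of all genes did; 2 had the higher value in series 2 (TLR2 and CD180), against 5.03% of all genes, and 1 the lower (UNC93B1), against 7.99%. Groups did not overlap in 6 members in series 1, against 58.1% of all genes, and in 7 in series 2, against 50.4%. With 1 library left out, the number differing between series ran from 0 (without control replicate 2, 3 or 6, or IRF4 shRNA replicate 3, 5 or 6) to 8 (without control replicate 4), and with the GC trend removed only TLR2 passed, while UNC93B1 gave 0.002. The call of UNC93B1 held without control replicate 1 or 4 (-0.87 and -1.02) and was lost without any 1 of the other 10 libraries (-0.82 to -0.64). TLR4 and TLR6 also passed in series 1 under library size alone (0.32 and 0.17) and with the GC trend removed (0.31 and 0.16).

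Genes that serve these receptors were taken from lists of 65 pathway genes, of which 61 were tested. Of these, 26 were higher and 12 lower with IRF4 shRNA, where 24.2% of all genes were higher and 23.9% lower, and the median log2 fold change was 0.03. In the test of the difference between the series, 11 had the higher value in series 2 and 6 the lower, against 5.03% and 7.99% of all genes. Of the pathway genes named in the text, CD36, HSP90B1, SLC15A4, TASL, PELI1, REL and TNFAIP3 were among the former and IRF7 among the latter. Among 14 tested genes of receptor folding, trafficking and endolysosomal processing, 3 rose and 4 fell (median 0.01), against 24.2% and 23.9% of all genes. HSP90B1, the chaperone that folds TLRs in the endoplasmic reticulum, fell from 569.9 ± 29.9 to 299.8 ± 27.9 CPM (SD, n = 6; edgeR adjusted p = 4.49e-09), while its co-chaperone CNPY3 stood at 78.4 and 74.4 CPM (edgeR adjusted p = 0.149). SLC15A4, the endolysosomal transporter needed for TLR7 and TLR9 signalling, fell from 73.9 ± 3.60 to 48.6 ± 4.06 CPM (edgeR adjusted p = 3.11e-07). Its adaptor TASL, listed as CXorf21, rose from 12.7 ± 0.995 to 32.0 ± 5.09 CPM (2.52-fold; edgeR adjusted p = 2.62e-08). SLC15A3 fell 1.44-fold and CTSB, a lysosomal protease, 1.15-fold (edgeR adjusted p = 6.22e-06 and 9.92e-05).

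Among 22 adaptors and proximal kinases and ligases, 7 rose and 5 fell (median -0.02), against 24.2% and 23.9% of all genes. MYD88, the adaptor that most TLRs use, went from 80.9 ± 3.59 to 129.5 ± 2.0 CPM (log2 fold change 0.68; edgeR adjusted p = 4.05e-10). SCIMP, a scaffold that binds TLR TIR domains, had 35 counts over the controls and 3003 with IRF4 shRNA, 0.174 ± 0.097 and 14 ± 0.949 CPM (edgeR adjusted p = 3.72e-13). PIK3AP1, which links TLRs to phosphoinositide 3-kinase, rose 1.70-fold (edgeR adjusted p = 2.74e-08), and IRAK2 went from 36 to 193 counts (edgeR adjusted p = 1.08e-05). PELI1, a ubiquitin ligase of IRAK proteins, fell 1.33-fold (edgeR adjusted p = 3.13e-05). TIRAP, TICAM1, IRAK4 and TRAF6 did not pass the test (edgeR adjusted p = 0.778, 0.672, 0.0562 and 0.482).

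Among 11 downstream kinases and transcription factors, 7 rose and 1 fell (median 0.20), against 24.2% and 23.9% of all genes. IRF7, which drives interferon genes after TLR7 or TLR9, went from 17.4 ± 7.10 to 70.0 ± 18.3 CPM (4.01-fold; edgeR adjusted p = 6.01e-06). Its rise was 6.63-fold in series 1 and 2.46-fold in series 2 (log2 difference -1.45, edgeR adjusted p = 0.0112), and its transcripts are 67.0% G and C. REL rose 1.80-fold (edgeR adjusted p = 3.75e-08), and TBK1, a kinase that activates IRF3, rose from 46.6 to 55.3 CPM (edgeR adjusted p = 0.000301). IRF5 rose 1.20-fold (edgeR adjusted p = 0.00102), and CHUK fell 1.28-fold (edgeR adjusted p = 8.93e-05). Among 11 negative regulators, 8 rose and 1 fell (median 0.21), against the same 24.2% and 23.9% of all genes. The gene that fell was TNFAIP3, which encodes the deubiquitinase A20, from 223 ± 2.59 to 114 ± 13.8 CPM (1.96-fold lower; edgeR adjusted p = 1.02e-08). IRAK3, an IRAK protein that dampens TLR signals, rose from 32.1 ± 2.73 to 68.8 ± 3.28 CPM (2.15-fold; edgeR adjusted p = 4.59e-10), and TNIP3, a partner of A20, rose 3.77-fold from 0.624 CPM (edgeR adjusted p = 2.32e-06). RNF216, a ubiquitin ligase, rose 1.13-fold and TNIP1, another partner of A20, 1.16-fold (edgeR adjusted p = 0.00014 and 0.000229). With the GC trend removed the lists counted 26 higher and 19 lower, where 3878 of 16437 genes were higher and 5318 lower.

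**Figure D5:**
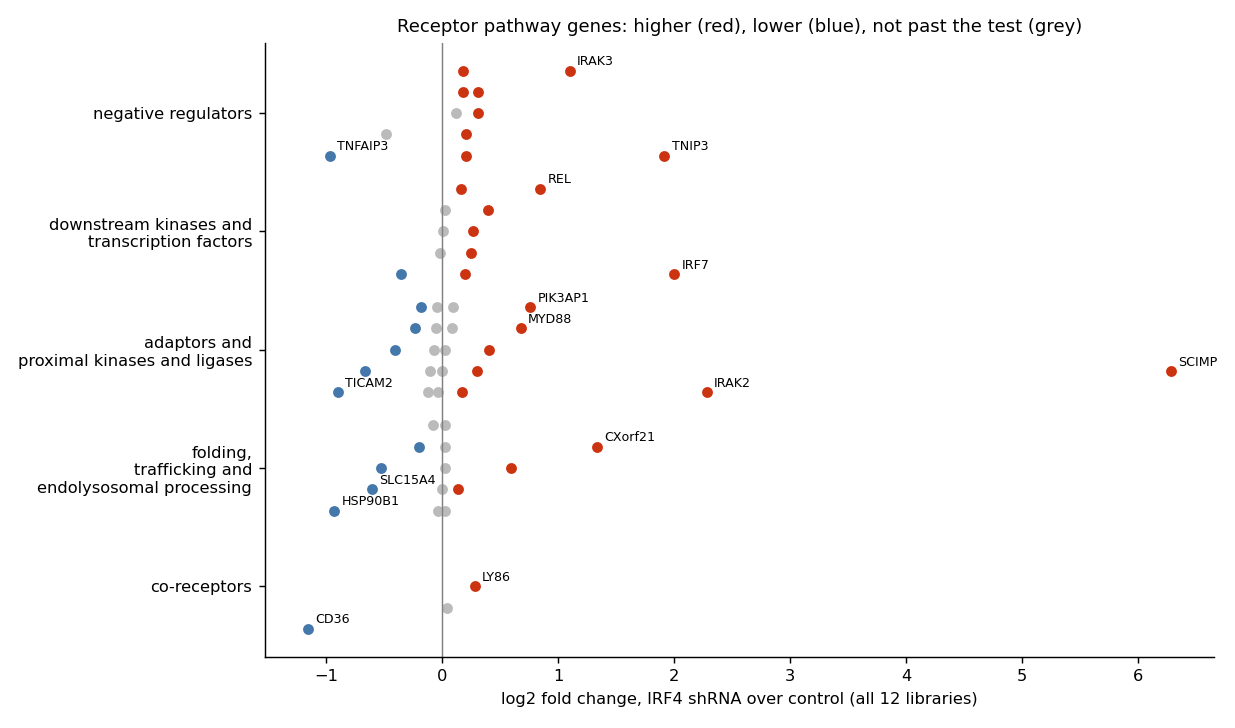
Log2 fold change with IRF4 shRNA (horizontal axis) over all 12 libraries of every tested gene of the 5 pathway lists, in red or blue where edgeR's adjusted p is under 0.05 (higher or lower) and in grey where it is not. The lists spread to both sides of 0, with SCIMP at 6.28 furthest to the right and CD36 at -1.15 among those furthest to the left.

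Across the 12 libraries, the genes most like each member in log2 CPM were found by Pearson's r over protein-coding genes with a mean of at least 1 CPM. Such r rests largely on the gap between the groups where a member changed much. The nearest to TLR7 were IFIT5 and TRANK1 (r = 0.999 each; log2 fold changes 2.47 and 2.06), and to TLR1 IFIH1 and EIF2AK2 (r = 0.995 each; 1.67 and 2.30). FCRL3 and HGSNAT were nearest to CD180 (r = 0.994 each), CD36 and TMEM170B to TLR2 (r = 0.990 and 0.989), and SIVA1 and ZNF316 to UNC93B1 (r = 0.981 and 0.980). For TLR4 they were UTP6 and EIF5B (r = 0.969 and 0.966), for TLR8 UEVLD and ZNF75D (r = 0.966 and 0.965), and for TLR9 PPP1R3F and NAA60 (r = 0.961 and 0.957). TLR6 had LAPTM4A and EPG5 (r = 0.940 and 0.935) and TLR10 had DIAPH2 and GLIPR1 (r = 0.934 and 0.930).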

How the data were processed

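RNA of 6 control and 6 IRF4 shRNA libraries of TMD8 was measured with a TruSeq stranded kit and paired reads of 100 bp, per the labels' protocols. STAR, HTSeq and hg38 were used, per the submitters' processing notes. The authors deposited estimated counts per gene without normalization. The values of TLR1, TLR6, TLR9 and UNC93B1 were fractional in all 12 libraries. Of the values of all genes, 71.7% were whole within 0.005. The step that made the others, the annotation release and the use of strand in counting are not given in the sources used here.

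Counts were rounded and tested with edgeR 4.0.16 in R 4.3.3 (quasi-likelihood, TMM, filterByExpr with a minimum count of 10, Benjamini-Hochberg adjusted p under 0.05, positive values higher with IRF4 shRNA) over all 12 libraries, within each library series and as the difference of the effects, series 2 minus series 1. Levels are given as CPM (mean ± SD), with TMM applied to the library sizes. CPM per kb uses exon lengths of GENCODE release 29. Coordinates are those of the deposited table. The text names all members, up to 5 genes of each pathway list with the smallest p, a few fixed pathway genes, the nearest expressed neighbours and the 2 genes most correlated with each member (log2 CPM with a prior count of 2). Genes that overlap or share sequence with a member were named after their values were seen. The members and lists were chosen with earlier results of these data known. Cell type lists were of B cell, monocyte, T cell, plasmacytoid dendritic cell and plasma cell markers.

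Alternatives were DESeq2 1.42.0 and its size factors, library size alone, other count filters, robust estimation, each library left out, library series as a covariate, replicate blocks, a GC trend removed with a spline of 5 degrees of freedom, counts summed per group and series, and, chosen after seeing the data, the GC trend removed without control replicates 5 and 6. Scripts were tested on simulated data. No 2 libraries of the same group and series matched within counting noise: over genes with 20 counts or more, chi-square divided by its degrees of freedom was 2.73 to 31.9. Nothing in the labels tells separate cultures from repeat preparations, so each p-value reflects the spread of these samples alone, which may be technical. Samples were taken as TMD8 from their titles, although a cell line field carried a number rising with the sample. PCR reads carry no molecular identifiers, so floors cover counting error only.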

Additional observations from a re-analysis of the deposited data

Results flagged for a closer look

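TLR6 in IRF4 shRNA replicate 1 stood apart from its group, at 37.7 CPM where the other 5 IRF4 shRNA libraries were at 33.1 to 34.7 CPM. The gap to the nearest library was 0.662 of the group's range, past Dixon's critical value of 0.625 for 6 libraries. In all, 20 groups (10 genes in each of 2 groups) were looked at, and chance gives such a gap in about 1 in 20.

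For 3 members the effect of IRF4 shRNA differed between the library series by edgeR's test of the difference, series 2 minus series 1. The difference was 0.61 on the log2 scale for TLR2, which fell in both series, 0.29 for CD180, which rose in both, and -0.78 for UNC93B1. For TLR2 the call was lost without control replicate 2, 3 or 6 or IRF4 shRNA replicate 2, 3, 5 or 6, with values of 0.53 to 0.59 and edgeR adjusted p of 0.0584 to 0.0725. For CD180 it was lost without control replicate 2, 3, 5 or 6 or IRF4 shRNA replicate 1, 3, 5 or 6, with values of 0.24 to 0.29. For UNC93B1 it was lost without any 1 library other than control replicates 1 and 4, with values of -0.82 to -0.64, and the difference was -0.15 without control replicates 5 and 6. Without control replicate 4, TLR4, TLR6, TLR8, TLR9 and TLR10 also differed between the series (0.54, 0.28, 0.64, -0.83 and 0.26).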

How the results depend on the processing

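TLR1, TLR2, TLR4, TLR7 and CD180 kept their direction and their call over all libraries in each of 26 alternatives. TLR8 lost its call in 1, TLR6 in 6 and TLR9 in 13, UNC93B1 was called in 7, and the adjusted p of TLR10 ran from 0.0862 to 0.840 in edgeR or DESeq2. The members called were 6 to 8 of 10 with 1 library left out, 6 to 7 in series 1 and 6 to 9 in series 2. Over all libraries, 7544 to 8209 of 16551 to 16649 genes were called with 1 left out. In the main fits of series 1 and series 2, 50.5% and 38.1% of all genes passed. After summing the counts of each group within a series (2 sums against 2), 5 members, 17 pathway genes and 4242 of 19241 genes were called. In the main fit these were 8, 38 and 7918 of 16437. Fewer degrees of freedom are part of the summed setting. Of all calls, 50.3% were higher, with 63.9% under library size alone and 42.2% with the GC trend removed, and these moved the median of all genes by 0.07 and -0.04. The number of members that differed between series, 3, was 1 with the GC trend removed, 0 without control replicates 5 and 6, 1 with the replicate block, and 0 to 8 with 1 library left out. Over all libraries TLR10 gave -0.0313 without control replicates 5 and 6, and in series 1 it gave 0.0297 under library size alone and 0.0527 with the GC trend removed. In series 2 UNC93B1 gave 0.0244 under library size alone, 0.173 with the GC trend removed, 0.00256 with the replicate block and -0.291 to 0.0822 with 1 library left out, and TLR9 gave -0.0714 to 0.42 with 1 left out. The difference between series was -0.0251 for TLR6 and 0.106 for TLR9 without control replicates 5 and 6, -0.0582 for TLR7 in that setting, -0.0894 with the GC trend removed and -0.0214 to 0.083 with 1 library left out, and 0.00221 for UNC93B1 with the GC trend removed. The causes were not tested. Numbers shared by title did not pair the libraries: deviations from the group means correlated at -0.26 to 0.13, and 0 of 12 libraries correlated best with their own number. With the replicate block, 6942 of 16437 genes and 7 of 10 members were called, and TLR9 gave 0.51 (edgeR adjusted p = 0.0685). At this depth CD14, with 44 counts over 6 libraries, and TLR3, with 0 and 3, were too low to be tested.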

Other observations

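Genes that mark B cell states moved beside the members. Of 6 B cell markers, 5 rose in edgeR's test, where 24.2% of all genes rose: MS4A1 (CD20) went from 2141 to 2806 CPM, and CD79B stood at 567 and 577 CPM (edgeR adjusted p = 0.638). All 6 tested plasma cell markers fell over all libraries, where 23.9% of all genes fell, and their summed level was 437 to 494 CPM in controls and 328 to 396 CPM with IRF4 shRNA. Within the series, 5 of the 6 fell in series 1 and 4 in series 2, against 24.6% and 17.9% of all genes. PRDM1 and JCHAIN did not pass in series 2 (edgeR adjusted p = 0.893 and 0.338). Plasmacytoid dendritic cells are known for TLR7 and TLR9. Of 5 tested markers of these cells, 1 rose and 4 fell, against 24.2% and 23.9% of all genes: LILRA4 went from 4.57 to 12.7 CPM, while CLEC4C, IL3RA, GZMB and TCF4 fell. Their summed level was 1009 to 1209 CPM in controls and 617 to 735 CPM with IRF4 shRNA. In the T cell list CD4 stood at 5.56 and 4.25 CPM and CD8A at 0.572 and 0.439 CPM. CD68 of the monocyte list went from 46.7 to 34.5 CPM.

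Of the exonic windows of 100 bases of UNC93B1, 2.30% also occur in other annotated genes, those sharing most being UNC93B7, UNC93B8, UNC93B5 and UNC93B3. Among these UNC93B5, named after its values were seen, fell from 1.72 to 0.436 CPM (log2 fold change -1.98, edgeR adjusted p = 6.7e-05), while UNC93B1 stood at 81.8 and 102 CPM.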
